A study of Mus musculus with 4 samples.

Results

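The SLC25 family consists mainly of carriers of the inner mitochondrial membrane. Its expression was examined in IMS32 cells on all probes whose gene name in the array design begins with Slc25a. Of 47 such gene names, 45 had a probe well above background on at least 1 array, out of 24756 of 31087 gene names on the array as a whole. These 45 genes were read by 56 probes, 34 genes by 1 probe and 11 genes by 2. Slc25a31, the germ-cell isoform of the ADP/ATP carrier, and Slc25a54 were not well above background on any of the 4 arrays. Signal well above background on a single array was enough, so a gene that was dim elsewhere could enter through 1 condition, as Slc25a53 did through [Glc 5 mM/Pyr (+)] and Slc25a41 through the arrays at 5 mM glucose.

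IMS32 is an immortalized line of adult mouse Schwann cells, the glia of peripheral nerve. The cells were held for 1 h in DMEM with 5% serum under 4 conditions: [Glc 5 mM/Pyr (+)], with 5 mM glucose and 1 mM pyruvate; [Glc 5 mM/Pyr (−)], with 5 mM glucose and no pyruvate; [Glc 15 mM/Pyr (+)], with 15 mM glucose and 1 mM pyruvate; and [Glc 15 mM/Pyr (−)], with 15 mM glucose and no pyruvate. Each condition was read on 1 one-colour array, so there were no replicates, and no difference between conditions given here has a replicate check. The design asks how carrier transcripts differ when pyruvate is withdrawn at either glucose concentration, and how they differ between the glucose concentrations with and without pyruvate.

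Carriers of this family are built on a shared plan of 3 repeats and move metabolites across a membrane that is otherwise closed to them. They bring ADP and phosphate to the ATP synthase, carry NADH equivalents inward through the malate-aspartate shuttle, and export citrate for lipid synthesis. Pyruvate itself enters by another protein family, the mitochondrial pyruvate carrier Mpc1 and Mpc2, which lies outside SLC25.

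The 75th percentile of probe intensity, used to scale each array, was 1789, 1742, 1598 and 1632 in the order of conditions given above, and 28472 to 30345 of 39418 probes were well above background, with no saturated spot. All 10 Schwann cell markers examined were well above background on the 4 arrays, with Sox10 between 4837 and 5667 and S100b between 3519 and 4319 in intensity. Markers listed for other cells were also read, namely 4 of 4 for fibroblasts, 4 of 5 for macrophages (the fifth not on the array), 2 of 3 for endothelium (Cdh5 on none) and 1 of 4 for neurons (Snap25, with Syt1 and Nefm on none). Their part in the carrier values was not tested. The arrays read RNA pooled over a culture, so fewer expressing cells and less RNA per cell cannot be told apart.

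Every value below rests on 60-base probes, and those of the genes on which the results turn are shown first. For each, the first 30 bases are given 5′ to 3′ in lower case, with the position of the whole probe on mm9 as the deposited files give it. Exon and UTR annotation of these positions was not used here. The probe of Slc25a4 is shown because it was printed 10 times on each array, and those of Slc25a21, Slc25a41, Slc25a48 and Slc25a53 because each of these genes had a difference of over 1.5-fold. Slc25a2 also had one, and its probe is not shown.
Slc25a4 (chr8:47292828-47292887, minus strand): ccaatgtactgagaggcatgggtggtgctt
Slc25a21 (chr12:57813811-57813870, minus strand): gggtatttctgctagaggcaatctcaccac
Slc25a41 (chr17:57172299-57172358, minus strand): aaggctcaggctttaaggccattttggttt
Slc25a48 (chr13:56573306-56573365, plus strand): acagaaagagcaaagcaagaattcctgtga
Slc25a53 (chrX:133517526-133517585, minus strand): ttgtcagaaacagcctgggaagtgctctct

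The paired probes of Slc25a5, Slc25a18 and Slc25a40 are shown because the text below treats the probes of each of these genes apart. The probes of Slc25a5 lie on chromosomes 14 and 1 of mm9, whereas RefSeq places the gene on chromosome X. Processed copies of this gene are known elsewhere in the genome, so its values are uncertain as readings of the gene itself.
Slc25a5, brighter probe (chr1:71760518-71760577, minus strand): taatatgccatatcttgaacattctgtaca
Slc25a5, dimmer probe (chr14:12013348-12013407, plus strand): tatttcagtcactcctgataataaaaaatt
Slc25a18, brighter probe (chr6:120743828-120743887, plus strand): actaaactttctgaaccagagatgttcgga
Slc25a18, dimmer probe (chr6:120744285-120744344, plus strand): ggagagtggttggggggaaattgtacactg
Slc25a40, brighter probe (chr5:8454558-8454617, plus strand): agcaaaaagcactttatcacgttttatgtg
Slc25a40, dimmer probe (chr5:8459884-8459943, plus strand): tctttcttaggcctatgatctagctaccta

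The family is recognised by a short motif of its repeats, a proline, any residue, an acidic residue, any pair of residues and a basic residue. Of the 56 probes, 1 spelled this motif in an open frame, the dimmer probe of Slc25a26, the S-adenosylmethionine carrier. It is shown whole, with the codons of the motif, bases 9 to 26, in capitals. The files give it no position on mm9.
Slc25a26, dimmer probe: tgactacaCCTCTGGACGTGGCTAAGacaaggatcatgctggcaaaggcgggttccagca

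Most carrier transcripts differed little among the 4 conditions. Of the 45 genes, 41 were well above background on all 4 arrays, and the range of their log2 values over the arrays had a median of 0.20 (interquartile range 0.13 to 0.28), against 0.25 for all 21718 genes so measured. The range was below 1.5-fold in 40 of the 41 carriers (97.6%), compared with 87.3% of all genes, and it reached 2-fold in 0. Slc25a21, the oxodicarboxylate carrier, had the widest range of these 41, 0.90. Of the remaining 4 genes, Slc25a2 and Slc25a48 were well above background on 3 arrays, Slc25a41 on 2 and Slc25a53 on 1.

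**Figure D1:**
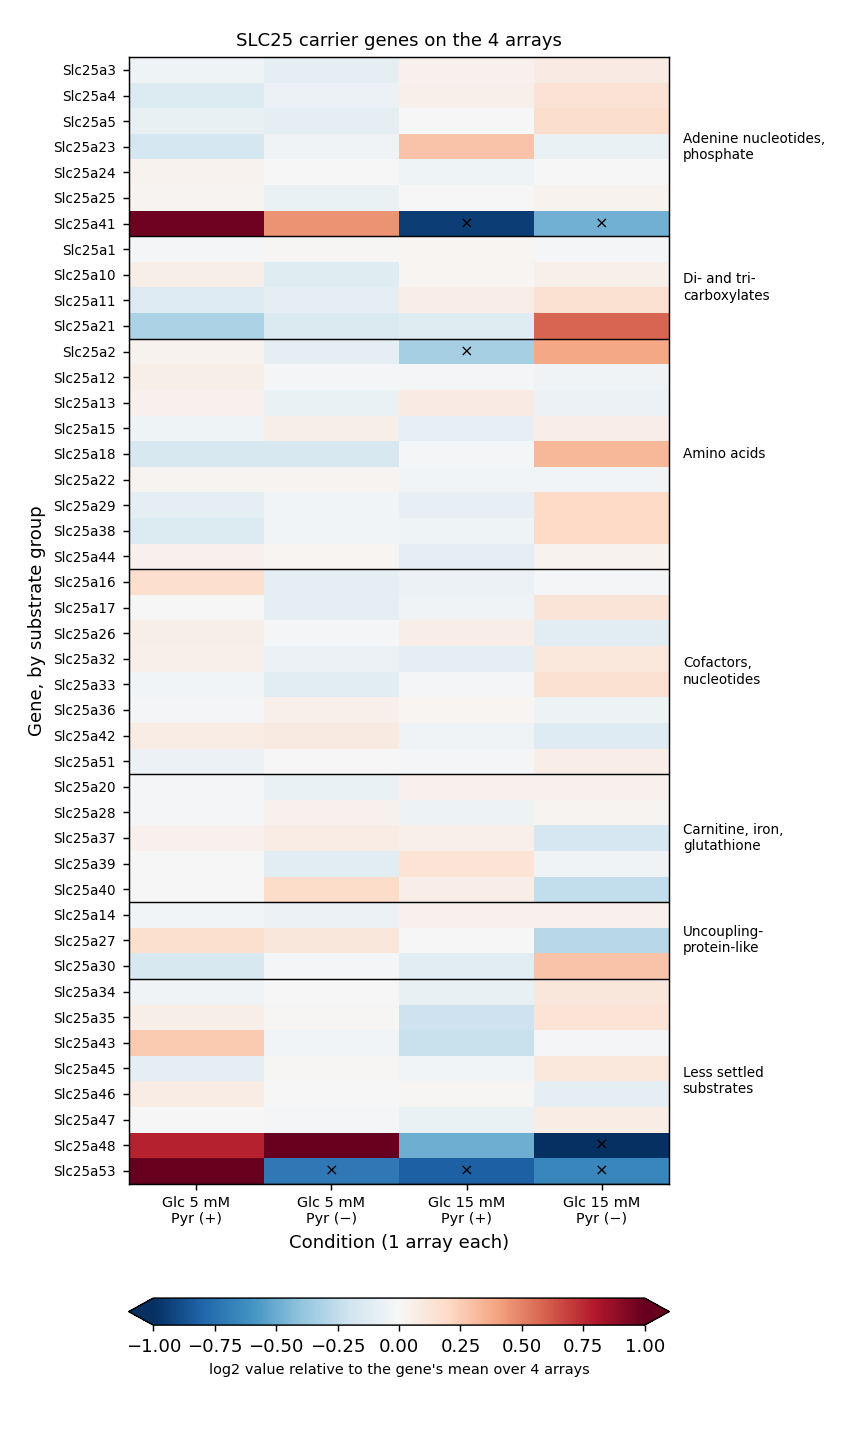
Heat map of 44 of the carrier genes (rows, by substrate group) on the 4 arrays (columns, 1 per condition). Colour is the log2 intensity relative to the 75th percentile of the array, minus the gene's mean over the arrays, and is cut at -1 and 1; a cross marks a gene with no probe well above background on that array. Strong colour is seen in Slc25a41, Slc25a48 and Slc25a53, and each of these has a cross on at least 1 array.

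A log2 difference of at least 1, or 2-fold, was taken as the threshold. Where a gene was not well above background on 1 side, the difference is a lower bound of its size. Slc25a2 is an exception, since its own signal was used and the difference is a plain one. On withdrawal of pyruvate at 5 mM glucose, 1 carrier passed the threshold, Slc25a53, which was lower, and 2.76% of all genes passed it. At 15 mM glucose 0 carriers passed, against 4.43% of all genes. Between 5 and 15 mM glucose with pyruvate, 3 carriers passed, Slc25a41, Slc25a48 and Slc25a53, all lower at 15 mM, against 2.65% of all genes. Without pyruvate, Slc25a48 alone passed, lower at 15 mM, against 4.58% of all genes. Slc25a41 and Slc25a53 passed the filter on signal through the very arrays on which they were high, so the filter itself fixed the direction of their bounds. With only probes well above background on all 4 arrays, 0 carriers passed in each of the 4 comparisons. With normexp background correction the counts were likewise 0. That correction adds an offset of 50 to each signal, which by construction shrinks the differences of dim genes. At 1.5-fold the corresponding counts of carriers were 2, 3, 3 and 3, against 5.73%, 10.2%, 5.59% and 10.8% of all genes.

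The middle of the family stayed close to that of all genes in each comparison. For pyruvate withdrawal the median log2 difference over carriers measured on both sides was -0.01 at 5 mM glucose (44 carriers, against -0.02 over 22952 genes) and 0.05 at 15 mM glucose (41 carriers, against 0.03 over 21886 genes). For 15 against 5 mM glucose it was 0.01 with pyruvate (42 carriers, against -0.02 over 22244 genes) and 0.08 without pyruvate (42 carriers, against 0.04 over 22242 genes). A difference below 1.2-fold was found in 40 of 44, 33 of 41, 38 of 42 and 35 of 42 carriers in these comparisons, which is 90.9%, 80.5%, 90.5% and 83.3%, compared with 85.3%, 76.4%, 82.6% and 72.9% of all genes.

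The sign of differences this small depended on the scaling. When the arrays were scaled to 8 spike-in control probes in place of the 75th percentile, the median of all genes moved by -0.19, -0.05, -0.37 and -0.23 in the same order, and 20, 7, 22 and 21 of the carriers measured on both sides changed sign. With that scaling 1 of 44, 20 of 41, 1 of 42 and 8 of 42 carriers were higher, whereas 21, 27, 23 and 29 were higher relative to the 75th percentile. The latter were 47.7%, 65.9%, 54.8% and 69.0% of carriers, compared with 43.7%, 57.0%, 44.4% and 56.5% of all genes. Directions are therefore given below relative to the 75th percentile of each array. No replicate arrays set the error of a difference. The repeated probes give the error within an array, with a median SD between spots of 0.07 to 0.08 on the log2 scale, and the scanner's own error for carrier probes well above background had a median of 10%, which is close to the lowest error that the scanner software assigned.

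Carriers of adenine nucleotides and phosphate supply the ATP synthase and exchange its product. Intensities are given from here on in the order of arrays used above, that is 5 mM glucose with and then without pyruvate, followed by 15 mM with and then without, and log2 differences as Pyr (−) minus Pyr (+) at 5 and at 15 mM glucose, then as 15 minus 5 mM glucose with and without pyruvate. Slc25a4, the ADP/ATP carrier of heart, muscle and brain, read 62614, 64515, 63782 and 69501 in intensity. Scaled to the 75th percentile, its log2 value was 5.13 ± 0.06, 5.21 ± 0.07, 5.32 ± 0.06 and 5.41 ± 0.04 (SD, n = 10 spots of 1 array). Its log2 differences were 0.08 and 0.09 for pyruvate and 0.19 and 0.20 for glucose. The 10 spots of [Glc 15 mM/Pyr (−)] lay between 5.35 and 5.46 and did not overlap those of [Glc 5 mM/Pyr (+)], between 5.00 and 5.21. These spots were printed with 1 labelled sample, so the SD leaves out the variation between cultures. Under spike-in scaling the signs of the difference for pyruvate at 5 mM glucose and of both glucose differences turned, to -0.11, -0.18 and -0.03.

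**Figure D2:**
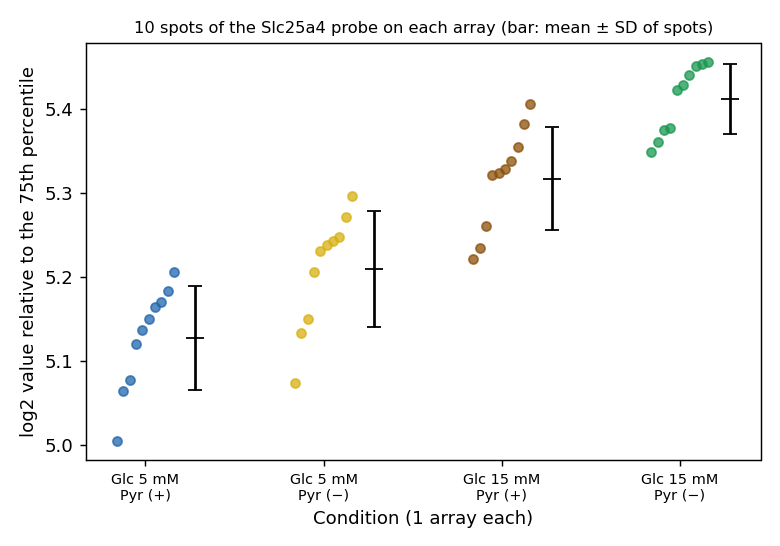
The 10 spots of the Slc25a4 probe on each array, in rank order, as log2 intensity relative to the 75th percentile of that array (vertical axis, which does not start at 0); bars give the mean ± SD of spots. The means lie between 5.13 and 5.41 and the spot SD between 0.04 and 0.07; with spike-in scaling the order of the arrays is not kept.

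Slc25a5, the ADP/ATP carrier of dividing cells, read 44022, 41036, 39945 and 45449 on its brighter probe. Its dimmer probe read 263, 263, 256 and 300.0. Over both probes the log2 differences were -0.01 and 0.18 for pyruvate and 0.07 and 0.26 for glucose, with both probes highest in [Glc 15 mM/Pyr (−)]. Slc25a3, the phosphate carrier, read 61894, 57150.3, 57144 and 59236 on its brighter probe and 7522, 7254, 7344 and 7784 on its dimmer one. The mean differences of Slc25a3 were -0.05 and 0.04 for pyruvate and 0.09 and 0.17 for glucose, all below 1.2-fold.

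Slc25a23, Slc25a24 and Slc25a25 exchange ATP-Mg for phosphate under the control of calcium, and Slc25a41 is a shorter member of the same group that lacks the calcium-binding domain. Slc25a23 read 57.9, 62.2, 71.2 and 57.2 and was highest in [Glc 15 mM/Pyr (+)]. Its differences were 0.14 and -0.35 for pyruvate and 0.46 and -0.03 for glucose, with opposite signs of the pyruvate difference at the glucose concentrations. Slc25a24 read 10544, 10050.0, 8913 and 9344 and Slc25a25 2059, 1985, 1825 and 1864 on its brighter probe, and neither gene had a difference as large as 1.2-fold. Slc25a41 read 24.9, 16.9, 5.93 and 8.33 and was well above background at 5 mM glucose alone. It was 1.43-fold lower without pyruvate at 5 mM glucose (log2 difference -0.52), but with normexp background correction this difference was 0.00. Against the lowest measurable signal, it was at least 2.12-fold lower at 15 mM glucose with pyruvate and at least 1.56-fold lower without. With normexp the log2 differences between glucose concentrations were -0.07 with pyruvate and -0.21 without. This gene was dim on all 4 arrays, and its pyruvate difference at 15 mM glucose was not measured.

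Relative to the 75th percentile, this group of 7 carriers had 2 higher and 5 lower without pyruvate at 5 mM glucose. At 15 mM glucose 6 were measured, with 5 higher and 1 lower. The share of all genes that rose was 43.7% and 57.0% in these comparisons, a shift in the same direction. Slc25a5, 1 of the 5 lower, had a difference of only -0.01. Whether the group departed from all genes was not tested.

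Di- and tricarboxylate carriers link the TCA cycle to the cytosol. Slc25a1, the citrate carrier, read 7148, 7111, 6573 and 6561, with differences of 0.03 and -0.03 for pyruvate and 0.04 and -0.02 for glucose. Slc25a11, the 2-oxoglutarate/malate carrier of the malate-aspartate shuttle, read 19227, 19208, 19594 and 21242. Its differences of 0.04 and 0.09 for pyruvate and 0.19 and 0.24 for glucose were all positive, of at most 1.18-fold, and with spike-in scaling those for pyruvate at 5 mM and for the glucose step with pyruvate were negative (-0.16 and -0.18). Slc25a10, the dicarboxylate carrier, read 429, 369, 373 and 391 and was 1.13-fold lower without pyruvate at 5 mM glucose, with a log2 difference of 0.04 at 15 mM glucose.

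Slc25a21, which carries oxoadipate and 2-oxoglutarate, stood apart within this group. It read 42.6, 46.8, 43.7 and 72.6, close together on 3 arrays and higher in [Glc 15 mM/Pyr (−)]. On withdrawal of pyruvate it was higher by a log2 difference of 0.17 at 5 mM glucose, which spike-in scaling turned to -0.02, and of 0.70, or 1.63-fold, at 15 mM glucose. Its log2 difference between glucose concentrations was 0.20 with pyruvate and 0.73, or 1.66-fold, without. The differences at 15 mM glucose and without pyruvate share the [Glc 15 mM/Pyr (−)] array. With normexp background correction they came to 0.23 and 0.34. The gene was in the dimmest of 3 equal groups of genes by signal, where the central 95% of pyruvate differences at 15 mM glucose ran from -0.94 to 0.97, a range that includes its value.

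Amino acid carriers include those of the malate-aspartate shuttle, of glutamate oxidation and of the urea cycle intermediates. Slc25a12, the aspartate/glutamate carrier of excitable tissue, read 7318, 6775, 6227 and 6261. Its homologue Slc25a13 read 2321, 2095, 2126 and 1970.0. The differences were -0.07 and -0.02 for pyruvate and -0.07 and -0.02 for glucose in Slc25a12, and -0.11 and -0.14 for pyruvate and 0.04 and 0.01 for glucose in Slc25a13, so neither shuttle gene differed by 1.2-fold in any comparison.

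Slc25a22, a glutamate carrier, read 1427, 1392, 1229 and 1255, and its differences were between -0.06 and 0.00. The other glutamate carrier, Slc25a18, was dim, with 43.5, 38.7, 31.9 and 44.1 on the brighter probe and 11.8, 12.7, 15.8 and 19.3 on the dimmer one. The 2 probes of Slc25a18 had opposite signs between glucose concentrations when pyruvate was given (-0.28 and 0.58). When it was withheld both were positive (0.28 and 0.70), with a mean of 0.49, which normexp background correction brought to 0.09. Slc25a2, an ornithine carrier, read 15.8, 14.1, 10.9 and 18.4 and was not well above background in [Glc 15 mM/Pyr (+)]. Withdrawal of pyruvate left it 1.64-fold higher at 15 mM glucose, whereas the log2 difference at 5 mM glucose was -0.12. At 15 mM it was 1.29-fold lower than at 5 mM glucose with pyruvate, and 1.39-fold higher without. The values of 1.64-fold and 1.29-fold used its own signal in [Glc 15 mM/Pyr (+)], so they are plain differences and not bounds. With normexp the log2 differences of Slc25a2 were 0.10 and 0.00 for pyruvate at 5 and 15 mM glucose. Those for glucose with and without pyruvate were 0.00 and 0.06. The normexp offset of 50 exceeds every reading of Slc25a2 and shrinks its differences by construction, so these values cannot judge them.

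Slc25a44, a carrier of branched-chain amino acids, read 400.2, 447, 328 and 389.8 on its brighter and 310.0, 255, 246 and 259.8 on its dimmer probe, which lay apart on pyruvate at 5 mM glucose (0.20 and -0.24). Slc25a15, the main ornithine carrier, read 31.1, 32.4, 27.0 and 30.5, Slc25a29, for basic amino acids, 223, 227, 201 and 249, and Slc25a38, the glycine carrier of haem synthesis, 2533, 2660.1, 2412 and 2907. Slc25a29 and Slc25a38 were highest in [Glc 15 mM/Pyr (−)], with pyruvate differences at 15 mM glucose of 0.28 and 0.24. In the group of 9, 5 were higher and 4 lower without pyruvate at 5 mM glucose, where 43.7% of all genes were higher. Of the 8 measured on both sides at 15 mM glucose, 5 were higher and 3 lower, and 57.0% of all genes were higher.

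Cofactor and nucleotide carriers bring into the matrix what its dehydrogenases and its genome need. Slc25a51, the NAD carrier, read 1681, 1664, 1524 and 1699 on its brighter probe and 948, 993, 890.3 and 931 on its dimmer one, with mean differences of 0.06 and 0.08 for pyruvate and 0.05 and 0.06 for glucose. It differed by less than 1.2-fold throughout, and under spike-in scaling the sign turned in all comparisons but pyruvate at 15 mM glucose.

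The pyrimidine nucleotide carriers are Slc25a33 and Slc25a36. Slc25a33 read 7644, 7297, 6747 and 8046 on the brighter probe, to which the files give a position, and 787, 692, 723 and 790.0 on the dimmer probe, to which they give none. Its mean differences were -0.09 and 0.16 for pyruvate and 0.01 and 0.26 for glucose. Slc25a36 read 2102, 2139.8, 1922 and 1865 and differed by 0.06 and -0.07 for pyruvate and 0.03 and -0.10 for glucose. At 15 mM glucose the pair thus had opposite signs for pyruvate, each below 1.2-fold.

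Of the other carriers in this group, Slc25a16, linked to coenzyme A, read 411, 333, 313 and 329.7 and was lower without pyruvate at 5 mM glucose (-0.26). Slc25a42, which carries coenzyme A, read 683, 669.7, 563 and 540.4. Slc25a17, a peroxisomal carrier of cofactors, read 7093, 6407, 6162 and 7023 and Slc25a32, for folate and FAD, 1249, 1130.1, 1005 and 1182. Both had a small negative difference without pyruvate at 5 mM glucose (-0.11 and -0.11) and a positive one at 15 mM glucose (0.16 and 0.20). Slc25a26 read 1642, 1479, 1358 and 1320.1 on its brighter probe and 644, 613, 631 and 525 on the probe with the family motif, and their pyruvate differences at 15 mM glucose were -0.07 and -0.30. The median of the 9 was -0.07 and 0.05 for pyruvate at 5 and 15 mM glucose, and 0.01 and 0.06 for glucose with and without pyruvate.

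Carriers of carnitine, iron and glutathione serve fatty acid oxidation, iron-sulphur clusters and redox balance. Slc25a20, the carnitine/acylcarnitine carrier, read 496, 465, 462 and 472, with differences of -0.05 and 0.00 for pyruvate and 0.06 and 0.12 for glucose. The mitoferrins Slc25a28 and Slc25a37 import iron. Slc25a28 read 4093, 4136, 3548 and 3825, and Slc25a37 read 4264, 4013, 3547 and 3197 on its brighter and 134, 142, 129.8 and 112 on its dimmer probe. Slc25a37 was lowest in [Glc 15 mM/Pyr (−)] on both probes, with a mean pyruvate difference at 15 mM glucose of -0.21 and a glucose difference without pyruvate of -0.24.

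Slc25a39 and Slc25a40 import glutathione. Slc25a39 read 2744, 2480.3, 2697 and 2447 and was lower without pyruvate at both glucose concentrations (log2 differences of -0.11 and -0.17). Slc25a40 gave different pictures on its 2 probes. The brighter probe read 1459.8, 1328, 1287 and 1279, with differences of -0.10 and -0.04 for pyruvate and -0.02 and 0.04 for glucose. The dimmer probe, which lies downstream on the same strand and was designed from a cDNA clone, read 87.7, 118, 87.6 and 59.5, with differences of 0.47 and -0.59 for pyruvate and 0.16 and -0.90 for glucose. The gene's mean differences of 0.19 and -0.31 for pyruvate and 0.07 and -0.43 for glucose therefore rest mostly on the dimmer probe.

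The uncoupling-protein-like carriers are relatives of Ucp1 that are known from brain and kidney. Slc25a14 read 5417, 5146, 5088 and 5176 and had differences of -0.04 and -0.01 for pyruvate and 0.07 and 0.10 for glucose. Slc25a27 read 353, 332, 281 and 237, lowest in [Glc 15 mM/Pyr (−)], with -0.27 for pyruvate at 15 mM and -0.39 for the glucose step without it. Slc25a30 read 272, 293, 252 and 338, highest on that same array, with 0.39 (1.31-fold) and 0.30 (1.23-fold) in these comparisons. At 5 mM glucose the pyruvate differences of Slc25a27 and Slc25a30 were -0.05 and 0.15.

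Carriers with less settled substrates made up the last group of 8, which held 2 of the 3 genes past the 2-fold threshold. Slc25a53 read 49.9, 6.53, 5.57 and 6.39 on the probe shown above, far above the other arrays in [Glc 5 mM/Pyr (+)], the only array on which it was well above background. It was at least 4.92-fold lower without pyruvate at 5 mM glucose and at least 4.25-fold lower at 15 mM glucose with pyruvate, and both bounds rest on that 1 reading. With normexp the log2 differences of Slc25a53 were -0.52 and -0.35. Its other probe read 6.63, 6.15, 6.12 and 8.43 and was not well above background on any array.

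Slc25a48, for which choline has been proposed as a substrate, read 47.3, 72.1, 17.7 and 7.88 and was not well above background in [Glc 15 mM/Pyr (−)]. It was 1.57-fold higher without pyruvate at 5 mM glucose (log2 difference 0.65) and at least 1.78-fold lower without pyruvate at 15 mM glucose. Between 5 and 15 mM glucose it was 2.39-fold lower with pyruvate and at least 6.65-fold lower without. With normexp background correction the log2 differences of Slc25a48 were 0.32 and -0.32 for pyruvate at 5 and 15 mM glucose. Those for glucose were -0.10 with and -0.74 without pyruvate. Under that correction no carrier reached 2-fold in any comparison, Slc25a41, Slc25a48 and Slc25a53 included. Its offset of 50 is above most readings of these genes and shrinks their differences by construction. The normexp values therefore cannot judge whether these differences hold.

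Slc25a43 read 127, 101, 80.9 and 95.1, highest in [Glc 5 mM/Pyr (+)], with differences of -0.29 and 0.20 for pyruvate and -0.48 and 0.01 for glucose. With normexp those for pyruvate were -0.12 and 0.04, and that for glucose with pyruvate was -0.16. Slc25a35 read 87.4, 82.3, 64.8 and 84.3, lowest in [Glc 15 mM/Pyr (+)], with differences of -0.05 and 0.35 for pyruvate and -0.27 and 0.13 for glucose. Slc25a34 read 72.9, 72.2, 63.1 and 73.7, Slc25a45 1083, 1129, 1008 and 1133, and Slc25a47, a carrier known from liver, 192, 185, 163 and 184. Slc25a46, an outer membrane protein linked to mitochondrial dynamics, read 7711, 7579, 7340.5 and 6906 on its brighter probe. These 4 genes had differences between -0.10 and 0.19 in the 4 comparisons.

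**Figure D3:**
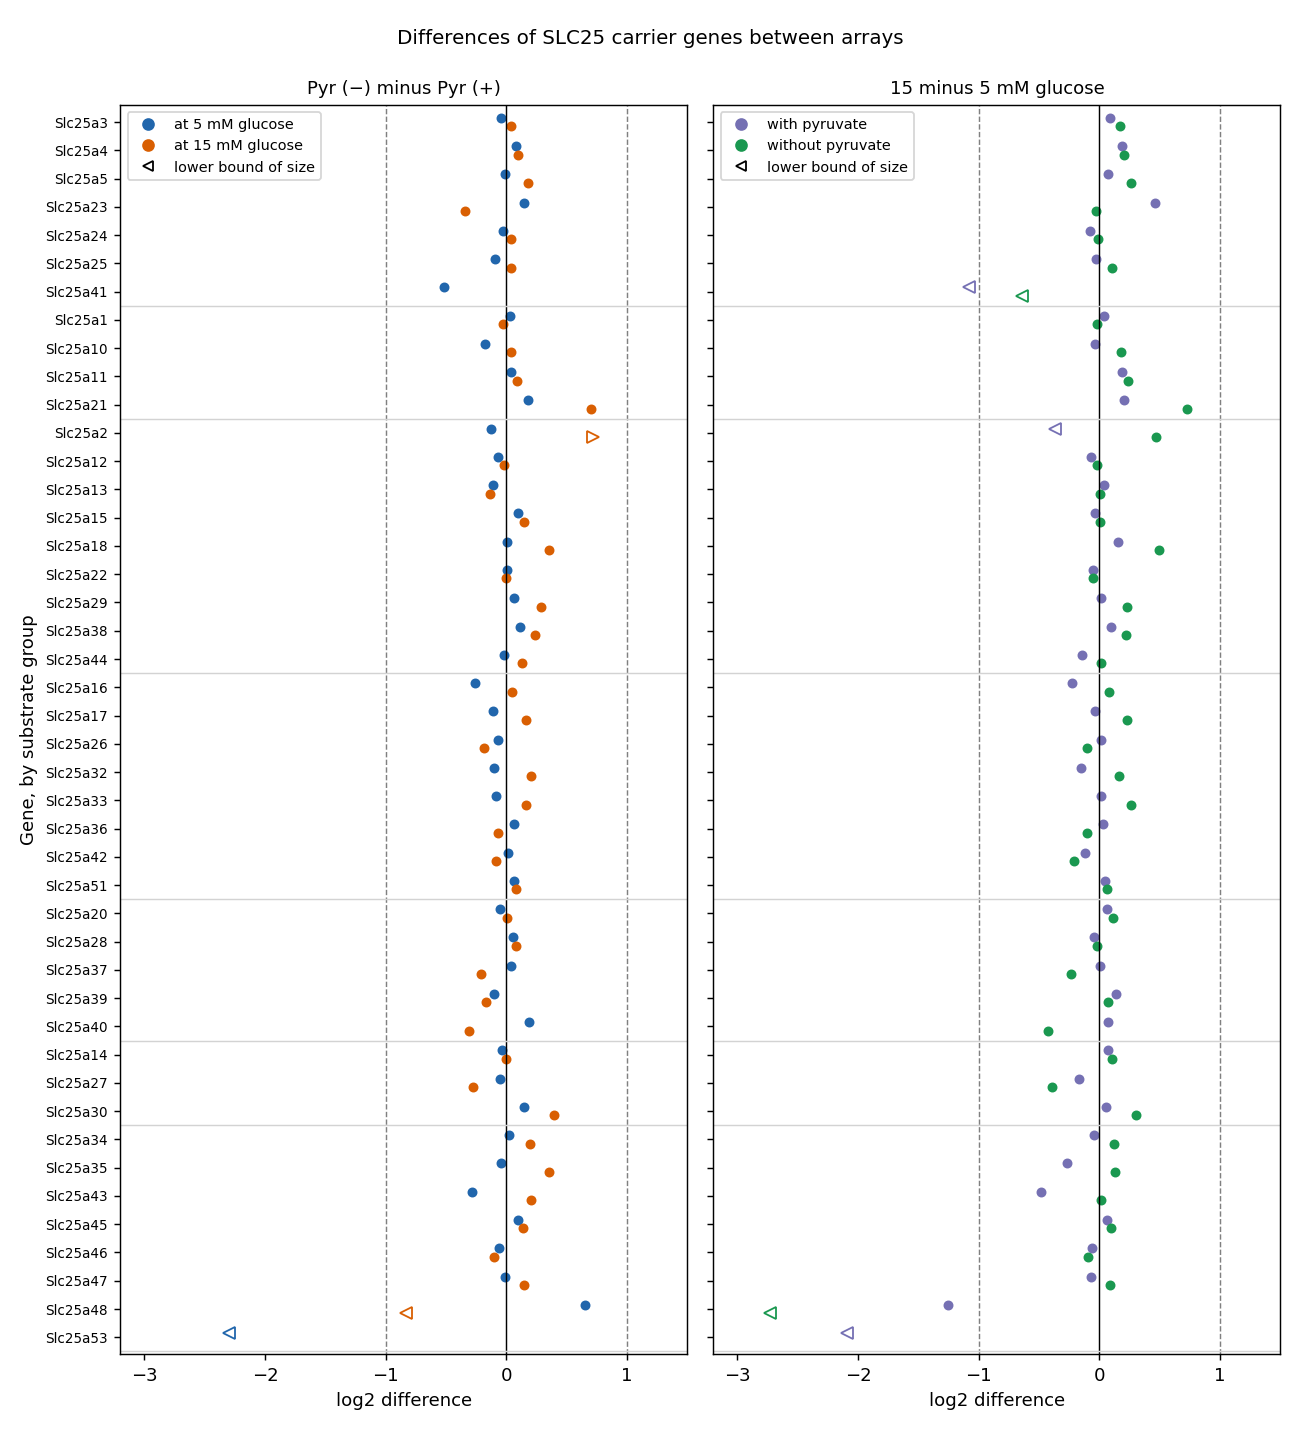
Log2 differences of 44 of the carriers (rows, by substrate group) for pyruvate withdrawal at 5 and 15 mM glucose (left) and for 15 against 5 mM glucose with and without pyruvate (right), relative to the 75th percentile of each array, without replicates. Filled circles are genes measured on both sides, and open triangles are lower bounds of the size, or plain differences for Slc25a2. Dashed lines mark 2-fold, and triangles reach them for Slc25a41, Slc25a48 and Slc25a53. The medians of the 4 comparisons lie between -0.01 and 0.08, which spike-in scaling moved to between -0.36 and -0.01.

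The pyruvate comparisons at 5 and 15 mM glucose share no array and can be set side by side. Of the 41 carriers measured in both, 13 were higher without pyruvate at both concentrations and 7 were lower at both. A further 14 were lower at 5 and higher at 15 mM glucose, and 7 the reverse. As percentages these were 31.7, 17.1, 34.1 and 17.1, compared with 25.5, 24.9, 31.6 and 18.04 over 21721 genes. The glucose comparisons with and without pyruvate likewise share no array, and 17 carriers were higher at 15 mM glucose in both, 7 lower in both, 11 lower then higher and 6 higher then lower. These were 41.5, 17.1, 26.8 and 14.6%, compared with 29.9, 29.1, 26.5 and 14.5% over 21725 genes. All these signs are relative to the 75th percentile and, as given above, many turned under spike-in scaling.

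The highest of the 4 arrays was [Glc 15 mM/Pyr (−)] in 21 of the 41 carriers measured on all arrays (51.2%), compared with 38.7% of all genes. Among them were Slc25a4, Slc25a5, Slc25a11, Slc25a21, Slc25a29, Slc25a30 and Slc25a38. The count was 18 to 23 under 5 other scalings or background corrections, where the share of all genes was 34.2% to 37.8%. With spike-in scaling the count was 3 and that share 4.2%. Under spike-in scaling [Glc 5 mM/Pyr (+)] was the highest in 37 of 41 carriers and 88.9% of all genes. No test was made of these shares, since carriers on 1 array are not replicates of a condition.

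Differences of the dim carriers were read against the spread of all genes of like signal. All genes measured on the 4 arrays were divided into 3 equal groups by mean signal, which placed 7 carriers in the dim, 18 in the middle and 16 in the bright group. In each of the 4 comparisons 0 of the 41 carriers lay outside the central 95% of all genes of its group. By construction 95% of all genes lie inside, and the count of 0 was not tested. Slc25a2, Slc25a41, Slc25a48 and Slc25a53 were not well above background on all arrays and are not among the 41. For glucose with pyruvate, the log2 difference of Slc25a48, measured on both sides, was -1.26. The band of the dim group there was -0.78 to 0.61. That band leaves out genes that, like Slc25a48, were not well above background on all arrays, so it cannot judge this value. The reading of Slc25a48 in [Glc 15 mM/Pyr (+)] was 17.7, with a scanner error of 19.7%.

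**Figure D4:**
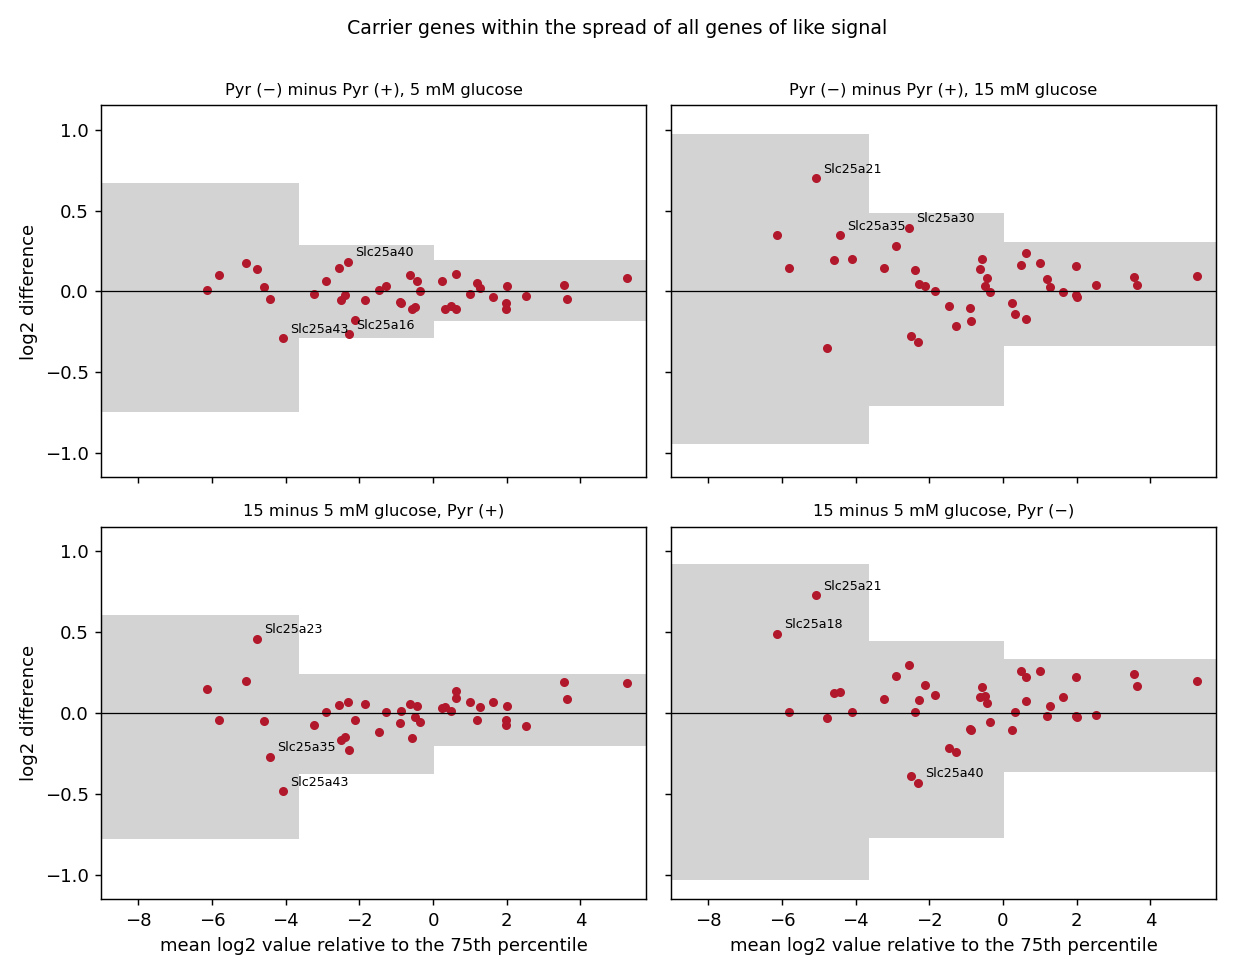
Log2 difference (vertical) against mean log2 value relative to the 75th percentile (horizontal) for the 41 carriers well above background on all arrays (points), in the 4 comparisons. Grey bands are the central 95% of all genes in the dim, middle and bright group by signal; all 41 points lie within the bands, which are widest for dim genes, and with spike-in scaling points and bands would move together by -0.19, -0.05, -0.37 and -0.23.

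Of the carriers, 11 genes had 2 probes well above background, which gives a check within an array. The probes had the same sign in 5, 11, 5 and 9 of the 11 genes in the 4 comparisons, in the order used above. The median gap between the probes was 0.15, 0.09, 0.10 and 0.11 on the log2 scale. The widest gaps were 0.57, 0.55 and 0.94 in Slc25a40, for pyruvate at either concentration and for the glucose step without pyruvate, and 0.87 in Slc25a18 for the glucose step with it.

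**Figure D5:**
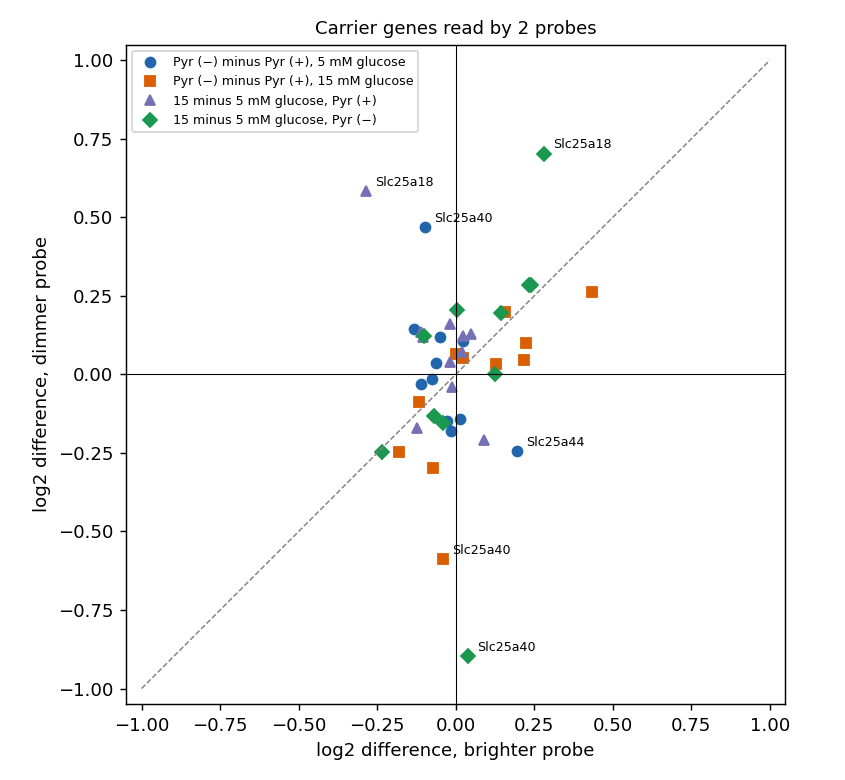
Log2 difference of the brighter probe (horizontal) against that of the dimmer probe (vertical) for the 11 carriers with 2 probes, in the 4 comparisons (colours and symbols), relative to the 75th percentile. The dashed line is equality; points of Slc25a18, Slc25a40 and Slc25a44 with a gap over 0.4 are named, and the widest gap is 0.94.

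An additive fit of pyruvate and glucose to the 4 arrays (limma, 1 residual degree of freedom, Benjamini-Hochberg adjustment over 31280 probes) called 0 probes, or 0%, for either term. At an unadjusted p under 0.05 it counted 1082 probes for pyruvate and 1493 for glucose, of which 0 and 3 were among the 56 carrier probes. The 3 were the dimmer probe of Slc25a18 and the probes of Slc25a41 and Slc25a48. For Slc25a41 and Slc25a48 the fit also used signal that was not well above background. Slc25a41 was kept through the arrays at 5 mM glucose alone, so the filter fixed its direction. The lowest adjusted p of a carrier probe in limma was 0.988 for pyruvate (Slc25a21, log2 difference 0.44, unadjusted p = 0.112) and 0.773 for glucose (the dimmer probe of Slc25a18, log2 difference 0.64, unadjusted p = 0.0105). For the brighter probe of Slc25a18 the glucose term of the fit was -0.001 on the log2 scale. The fit takes any dependence of the pyruvate difference on glucose as error. With 1 residual degree of freedom a count of 0 does not show that carriers were alike in the 4 conditions.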

How the data were processed

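Gene expression was measured in IMS32 cells on 4 one-colour Agilent mouse arrays, 1 per condition, grouped by the treatment in the labels. The authors deposited the scanner output of Agilent Feature Extraction 11.5.1.1, in which the processed signal of each spot is a background-corrected intensity that is not scaled between arrays. The deposited value table gives the same spots as a ratio to 1 constant per array; GeneSpring GX is named in the methods, and its settings are not given in the sources used here.

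Control spots and spots flagged as outliers were left out, as were 11 of 39429 probes with every spot flagged on an array, and repeated spots were replaced by their mean. The log2 value was computed from the deposited intensity relative to the 75th percentile of each array. A probe was kept if any array had it well above background, and a gene is the mean over its kept probes. Where 1 side was not well above background, the bound used, for that side, the array's lowest signal of a probe well above background, or the probe's own signal if that was higher. With 1 array per condition no test was made within a pair of arrays; the additive fit over the 4 arrays is the only test, and the number of arrays limits the precision.

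The additive fit used limma 3.58.1 under R 4.3.3, and other steps used Python 3.11.15, numpy 2.4.6 and pandas 2.3.3. The calculations were tested on simulated data. All 45 gene names are RefSeq symbols, and positions of probes (mm9) are as deposited.

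The members, the gene lists and the tests were chosen with earlier results of these data known. Genes named with values were the carriers of ADP/ATP, phosphate, di- and tricarboxylates, aspartate/glutamate, glutamate, carnitine, pyrimidine nucleotides and NAD; the 3 largest differences in each comparison; members past 2-fold; and genes whose 2 probes differed in sign by over 0.3. Other members are named outside this rule to account for the family. For 1 member no values are given; the counts and medians include it. In the neighbouring lists, only some of the highest and lowest genes are named.

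The alternatives changed the scaling (a 75th percentile of the probes measured on every array, quantile, cyclic loess, or 8 of 10 spike-in probes), the background correction (normexp, offset of 50), the source (the deposited ratio), the filter on dim signal, the probe taken for a gene (the brightest), the threshold (1.5-fold) and, for the fit, the variance model (an intensity trend). The setting without Slc25a5 and 3 other members with probes of unsettled position was chosen after seeing the data.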

Additional observations from a re-analysis of the deposited data

Results flagged for a closer look

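Slc25a48 differed in opposite directions on pyruvate withdrawal at the 2 glucose concentrations. The log2 difference was 0.65 at 5 mM glucose and, as a lower bound of the size, -0.83 at 15 mM glucose, where [Glc 15 mM/Pyr (−)] was not well above background. With normexp background correction the 2 values were 0.32 and -0.32. Each value rests on 1 probe and 1 array a side, and the difference between the 2 glucose concentrations was not tested.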

How the results depend on the processing

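Of 112 medians and counts under the alternatives, 97 stayed within the limits set, namely 0.104 on the log2 scale for a median and 1.5 times for a count, and 15 moved. These limits do not fix the sign: 9 of 40 medians had the opposite sign, each of the 4 comparisons being among them. The median for pyruvate at 5 mM glucose (-0.01) was 0.01 with quantile normalization, 0.02 with cyclic loess, 0.01 with normexp and 0.00 without Slc25a5 and the members with probes of unsettled position. The median for glucose with pyruvate (0.01) was -0.02 with the brightest probe and -0.01 without these members, and that for pyruvate at 15 mM glucose (0.05) was -0.01 with spike-in scaling. With spike-in scaling the median over carriers was -0.21 for pyruvate at 5 mM glucose, -0.36 for the glucose step with pyruvate and -0.15 without it, and that over all genes was -0.21, -0.39 and -0.19. The count past 2-fold for pyruvate at 5 mM (1) was 0 with normexp or with only probes well above background on all arrays, and 2 without a filter or at 1.5-fold. For pyruvate at 15 mM glucose (0) it was 1 without a filter (Slc25a48) and 3 at 1.5-fold. For glucose with pyruvate (3) it was 0 with normexp and 0 with only probes above background on all arrays. For glucose without pyruvate (1) it was 0 with each of these, 2 without a filter and 3 at 1.5-fold. The filter leaves out the dim genes by construction, and the offset of 50 in normexp shrinks their differences by construction. The cause of the other moves was not tested. Of 896 values for named genes, 765 stayed within the limits, 131 moved. Among 101 differences of named genes, 52 changed sign under at least 1 alternative, 22 of them under one other than spike-in scaling, and the largest of the 52 was 0.52 in size. The fit called 0 probes under each of its 7 alternatives. No paired analysis was possible because each condition has 1 array, and for the same reason no replicate could be left out. Dim signal limits what was read of Slc25a2, Slc25a41, Slc25a48 and Slc25a53.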

Other observations

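Lists of genes that work beside the carriers were read in the same way, and 0 of their 27 measured genes passed 2-fold in any of the 4 comparisons. The shares of all genes that passed were 2.76%, 4.43%, 2.65% and 4.58%, and a count of 0 among so few genes does not set these lists apart. Relative to the 75th percentile, 10 of 13 genes for the import of carriers into the inner membrane were lower without pyruvate at 5 mM glucose (median -0.03). At 15 mM glucose 10 of 13 were higher (median 0.12). Of all genes, 43.7% were higher at 5 mM glucose (median -0.02) and 57.0% at 15 mM glucose (median 0.03). The lowest of the 13 at 15 mM glucose was Timm9 (-0.13) and the highest Timm8a1 (0.28). For 15 against 5 mM glucose without pyruvate 10 of 13 were higher, with a median of 0.22, between -0.14 for Timm9 and 0.31 for Timm8a1. In that comparison 56.5% of all genes were higher, with a median of 0.04. With spike-in scaling 13 of 13 were lower at 5 mM glucose, 9 of 13 were higher at 15 mM glucose and 6 of 13 were higher in the last comparison.

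Mpc1, of the mitochondrial pyruvate carrier, read 16397, 15191, 14913 and 17841 in intensity over 2 probes, in the order used above. Its log2 differences were -0.07 and 0.23 for pyruvate at 5 and 15 mM glucose, and 0.03 and 0.33 for glucose with and without pyruvate. It was the lowest of 7 other small carriers for pyruvate at 5 mM glucose and the highest at 15 mM glucose. Among the outer membrane channels Vdac1, Vdac2 and Vdac3, 3 of 3 were higher in 3 of the 4 comparisons, by at most 0.19 (Vdac3). These were pyruvate at 15 mM glucose and glucose with and without pyruvate, where 57.0%, 44.4% and 56.5% of all genes were higher. With spike-in scaling, however, 1 of 3 channels was higher for pyruvate at 15 mM glucose and 0 of 3 in the other comparisons. SLC25 genes under other array names, namely Ucp2, Ucp3, Mtch1 and Mtch2, differed by between -0.11 and 0.21.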
